A study of Mus musculus with 11 samples.

Results

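The 10 genes described here, Tln2, Vps13c, Rora, Ice2, Bnip2, Gtf2a2, Myo1e, Ccnb2, Rnf111 and Sltm, are neighbours of Anxa2 on mouse chromosome 9. The rule that picks them uses name and position and no measured value, although earlier results of these data were known when it was written, and each gene was found as 1 row in both deposited tables, 10 of the 18712 genes that the tables share. RNA was sequenced from untreated primary mesenchymal stromal cells of the bone marrow of C57/BL6 mice in 3 genotypes: 3 libraries of an ANXA2 knockout, 4 libraries of an ANXA5 knockout and 4 WT libraries. Each knockout was deposited in a table with the same 4 WT libraries, and the ANXA5 knockout, whose target lies on chromosome 3, is used here as a comparison knockout with an intact Anxa2. The labels give neither how the alleles were made nor whether the libraries of a group came from separate animals. The p-values therefore measure only the spread between these libraries, part of which may be technical. The ANXA2 knockout libraries are called 1, 3 and 4 after their columns, whose numbers differ from those of the titles.

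Annexin A2 is a protein that binds membrane phospholipids when calcium is present, and with its partner S100A10 it takes part in membrane traffic and in plasminogen activation at the cell surface. Genes that lie beside a disrupted gene are commonly looked at in a knockout, because an engineered allele can alter regulatory sequence near its target and can be inherited together with linked chromosome. The neighbours of Anxa2 have varied roles. Ice2, Gtf2a2, Sltm and Rora act in transcription, Rnf111 and Ccnb2 act in protein degradation and cell division, and Bnip2, Myo1e, Tln2 and Vps13c act at the cytoskeleton and at membranes.

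The libraries held 26.1 to 32.0 M reads in the ANXA2 knockout, 27.0 to 35.7 M in the ANXA5 knockout and 23.3 to 29.1 M in WT cells, counted over the genes of the tables. Values are read counts divided by a size factor of the library, called normalised reads below. All 12 of the fixed stromal cell markers were present in both tables, with summed levels of 573982 to 876894 normalised reads in ANXA2 knockout and 401136 to 771604 in WT libraries. The macrophage markers (8 of 8 present) summed to 78741 to 151950 in ANXA2 knockout and 75496 to 114528 in WT libraries, and the neutrophil markers (6 of 6 present) to 244664 to 576793 in ANXA2 knockout and 262872 to 463837 in WT libraries. Endothelial markers (6 of 6) summed to 3203 to 4675 in ANXA2 knockout and 3228 to 4296 in WT libraries, B and plasma cell markers (6 of 6) to 13052 to 18857 in ANXA2 knockout and 10405 to 14259 in WT libraries, and erythroid markers (6 of 6) to 12930 to 27296 in ANXA2 knockout and 13811 to 52756 in WT libraries. In ANXA5 knockout libraries stromal markers summed to 636616 to 922079, against 438706 to 852203 in WT libraries of that table. Macrophage markers summed to 115260 to 145371 there, against 82567 to 125586, and neutrophil markers to 402743 to 555856, against 287493 to 508619. Endothelial markers summed to 4203 to 6061, against 3533 to 4745, and B and plasma cell markers to 14748 to 23633, against 11492 to 15607. Erythroid markers summed to 39817 to 68436, against 15105 to 57745. Markers of blood cells were thus read in every group, and the part of such cells in the results was not tested. In such bulk RNA, fewer cells of a type and less RNA per cell cannot be told apart. The targets followed the labels: Anxa2 averaged 8542 ± 1691 normalised reads in ANXA2 knockout libraries and 29822 ± 1354 in WT libraries (SD, n = 3 and 4), a log2 fold change of -1.82 (SE 0.15), and Anxa5 in ANXA5 knockout libraries had a log2 fold change of -3.43 against WT libraries. Anxa2 in the ANXA5 knockout had a log2 fold change of 0.00 against WT libraries.

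On the GRCm38 build, Anxa2 lies on the plus strand at chr9:69453620-69491795, and all 10 neighbours start within 2 Mb of its start. This build is not the submitters' GRCm39, so these positions come from the GENCODE vM21 annotation and not from the files. Before Anxa2 lie Tln2, whose transcription start is 1.89 Mb away, Vps13c at 1.61 Mb, Rora at 0.80 Mb and Ice2 at 0.06 Mb. After Anxa2 lie Bnip2 at 0.54 Mb, Gtf2a2 at 0.56 Mb, Myo1e at 0.75 Mb, Ccnb2 at 0.97 Mb, Rnf111 at 1.05 Mb and Sltm at 1.09 Mb. Tln2, Ccnb2 and Rnf111 are on the minus strand and the other 7 on the plus strand. Annotated antisense or small genes overlap Rora, Bnip2, Tln2 and Rnf111, and since the use of strand in the counting is not given in the sources used here, reads of such partners cannot be told apart from those of the 4 genes.

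RefSeq promoter windows on GRCm38.p6, from 250 bases before to 50 bases after the annotated start, were matched for 8 of the 10 genes and for Anxa2. The windows of Anxa2 (plus strand, chr9:69453433-69453732), of Ice2 (plus strand, chr9:69397748-69398047) and Bnip2 (plus strand, chr9:69989216-69989515), the neighbours starting nearest to it on either side, and of Ccnb2 (minus strand, chr9:70421505-70421804) are printed to show what kind of promoters surround the disrupted gene. Capitals mark every match on either strand to 1 of 5 short motifs. A CCAAT box is the run of letters that gives it its name. A TATA box was searched as TATAAA. For the cAMP response element the search used the palindrome TGACGTCA. Cell cycle homology regions were searched by their core TTTGAA, and nuclear receptor sites by the core that each receptor molecule contacts, AGGTCA. No 2 of these motifs overlap in the windows printed.
Anxa2: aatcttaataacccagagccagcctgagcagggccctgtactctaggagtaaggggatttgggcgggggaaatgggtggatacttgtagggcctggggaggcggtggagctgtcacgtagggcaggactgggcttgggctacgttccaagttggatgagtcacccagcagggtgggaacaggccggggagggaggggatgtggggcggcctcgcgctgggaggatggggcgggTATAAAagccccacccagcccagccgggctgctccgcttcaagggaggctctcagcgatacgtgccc
Ice2: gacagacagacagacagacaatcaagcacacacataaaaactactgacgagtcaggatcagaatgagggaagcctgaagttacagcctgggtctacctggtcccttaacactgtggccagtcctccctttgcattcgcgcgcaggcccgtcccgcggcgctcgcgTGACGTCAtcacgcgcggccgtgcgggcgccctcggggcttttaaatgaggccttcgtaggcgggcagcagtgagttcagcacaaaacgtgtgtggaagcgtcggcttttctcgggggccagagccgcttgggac
Bnip2: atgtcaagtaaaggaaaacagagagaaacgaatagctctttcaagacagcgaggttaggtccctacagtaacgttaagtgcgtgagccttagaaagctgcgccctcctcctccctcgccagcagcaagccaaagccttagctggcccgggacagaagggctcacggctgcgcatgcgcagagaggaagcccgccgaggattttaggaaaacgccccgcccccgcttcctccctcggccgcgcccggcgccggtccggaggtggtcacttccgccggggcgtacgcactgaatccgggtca
Ccnb2: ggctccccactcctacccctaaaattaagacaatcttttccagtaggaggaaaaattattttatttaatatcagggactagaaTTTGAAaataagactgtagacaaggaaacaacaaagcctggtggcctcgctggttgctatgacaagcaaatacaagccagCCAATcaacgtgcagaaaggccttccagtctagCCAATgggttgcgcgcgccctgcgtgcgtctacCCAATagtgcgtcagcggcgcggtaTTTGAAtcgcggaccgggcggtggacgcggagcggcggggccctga
The Anxa2 window held a TATA box close to the start. The Ice2 window held a cAMP response element, which 1.79% of all 32851 windows held. No match was found in the Bnip2 window, nor in those of Rnf111 and Sltm. Ccnb2 had 3 CCAAT boxes, the arrangement known from promoters of genes switched on before mitosis, and 2 matches to the cell cycle core. A match to the CCAAT box was held by 3 of the 8 windows (Ccnb2, Myo1e and Rora) and by 37.4% of all windows, and a match to the TATA box by 1 of 8 (Gtf2a2) and by 13.6% of all. Matches were counted at any position, and whether they act was not tested. The Gtf2a2 match lies far before the start, and the Rora match lies after the start. The cell cycle core was held by 1 of 8 and by 17.9% of all windows, and the nuclear receptor core, part of the element that RORα itself binds, by 0 of 8 and by 16.3% of all. The GC content of the 8 windows ran from 51.7 to 66.3% (median 60.0%, against 52.7% over all windows), and their ratio of observed to expected CpG from 0.668 to 1.05 (median 0.926, against 0.384). No motif searched was in all 8 windows, and all 8 had a CpG ratio above the median of all windows.

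None of the 10 neighbours passed the test in the ANXA2 knockout, at an adjusted p of 0.05. By limma, 0 of 10 were called, where 0.112% of the 16123 tested genes were, and at an unadjusted p under 0.05 it was again 0 of 10, where 8.69% of all tested genes passed. edgeR and DESeq2 also called 0 of 10, where they called 0.13% and 0.677% of all genes. The median log2 fold change of the 10 was -0.02, against 0.02 over all tested genes. Without regard to sign the median was 0.146, against 0.165 over all tested genes. The sizes of the changes were thus close to those of all tested genes. Log2 fold changes ranged from -0.32 for Vps13c to 0.37 for Rnf111, with 3 genes above 0 and 7 below. In no neighbour did the ANXA2 knockout libraries all lie above, or all lie below, the WT libraries, which was so for 9.19% of all tested genes. A p that misses the threshold does not show equality, and the 95% intervals of the log2 fold changes were narrowest for Bnip2 (-0.24 to 0.23) and widest for Tln2 (-0.43 to 0.82). In simulated tables of the same layout with 200 changed genes, limma recovered 80% of the genes given a 2-fold change. The real fit called 18 genes, and the adjusted threshold is harder to pass when fewer genes change, so the 80% may be too high here. Shifts of a neighbour of 2-fold or less could thus go uncalled at this depth and number of libraries. Aldh1a2, described below, was not called at a log2 fold change of -1.50 (adjusted p = 0.278 by limma). No interval of a neighbour reached down to a log2 fold change of -1, where Anxa2 itself was at -1.82.

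**Figure D1:**
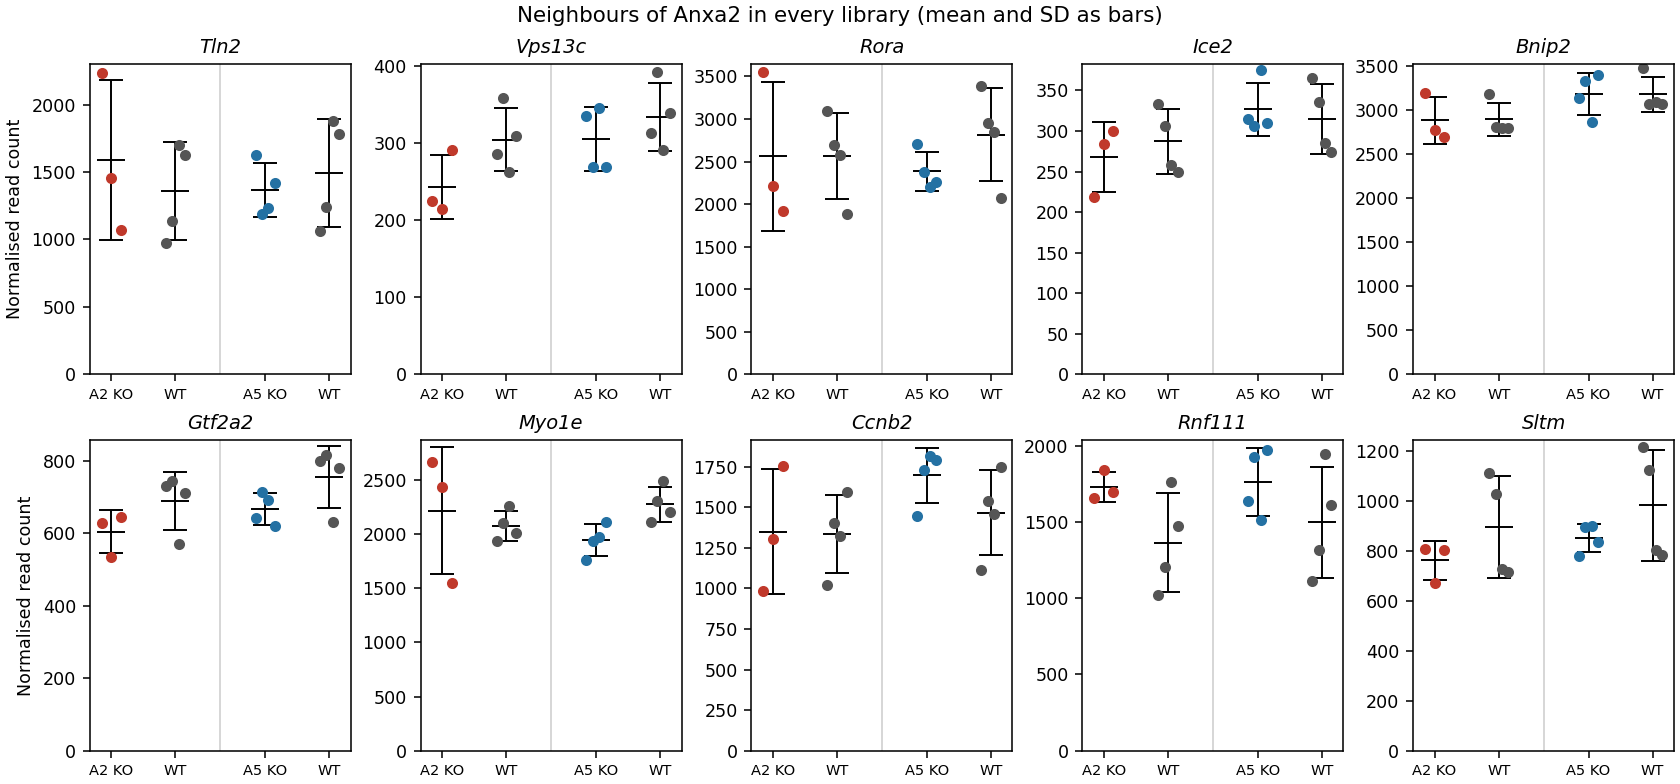
Normalised reads of each of the 10 neighbours (vertical axes) by library (points) in ANXA2 knockout (A2 KO) and WT libraries of the ANXA2 table and in ANXA5 knockout (A5 KO) and WT libraries of the ANXA5 table, with group means and SDs as bars. The ANXA2 knockout points fall within or across the WT points in every panel, and only in Myo1e do the ANXA5 knockout points all lie below the WT points.

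Ice2, which codes for a subunit of the little elongation complex that RNA polymerase II uses at small nuclear RNA genes, starts nearest to Anxa2. It had 219, 284 and 300 normalised reads in ANXA2 knockout libraries 1, 3 and 4, against 334, 307, 259 and 249 in WT libraries 1 to 4. The groups overlapped, with knockout library 1 below all WT libraries, and the log2 fold change was -0.10 (SE 0.17, adjusted p = 0.867 by limma). In the ANXA5 table Ice2 had 315, 306, 375 and 310 in ANXA5 knockout libraries 1 to 4, against 365, 336, 286 and 274 in WT libraries, and the groups overlapped again (log2 fold change 0.06, adjusted p = 0.869).

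Gtf2a2, the small subunit of the general factor TFIIA, which steadies the TATA-binding protein on promoters, had 629, 536 and 646 normalised reads in ANXA2 knockout libraries, against 730, 745, 571 and 712 in WT libraries. WT library 3 alone fell within the knockout range. The log2 fold change was -0.19 (SE 0.13, adjusted p = 0.664 by limma), and it was nearly as large in the ANXA5 knockout at -0.18 (SE 0.10, adjusted p = 0.521). The ANXA5 knockout libraries had 643, 715, 692 and 620, against 798, 816, 630 and 781 in WT libraries, so the same WT library was the low one.

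Sltm, a nuclear RNA-binding protein of the SAFB family that acts on transcription, had 808, 671 and 805 normalised reads in ANXA2 knockout libraries, against 1111, 1028, 727 and 715 in WT libraries. WT libraries 1 and 2 lay above, and WT libraries 3 and 4 among, the knockout libraries (log2 fold change -0.21, SE 0.18, adjusted p = 0.724 by limma). In ANXA5 knockout libraries it had 780, 894, 898 and 834, against 1215, 1125, 803 and 784 in WT libraries, with a log2 fold change of -0.18 (SE 0.15).

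Rora, the nuclear receptor RORα that switches on Bmal1 in the circadian clock, varied widely within the groups. It had 3550, 2209 and 1918 normalised reads in ANXA2 knockout libraries, against 3097, 2694, 2581 and 1889 in WT libraries. Knockout library 1 was the highest of all and the other 2 fell between WT libraries 3 and 4, and the log2 fold change was -0.03 (SE 0.23, adjusted p = 0.973 by limma). ANXA5 knockout libraries had 2705, 2373, 2200 and 2255, against 3387, 2949, 2850 and 2071 in WT libraries, where again WT library 4 was low (log2 fold change -0.22, SE 0.14, adjusted p = 0.546).

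Rnf111, which codes for the ubiquitin ligase Arkadia that degrades the SMAD repressors SKI, SnoN and SMAD7, had the highest fold change of the 10. It had 1656, 1845 and 1695 normalised reads in ANXA2 knockout libraries, against 1018, 1203, 1763 and 1473 in WT libraries. The groups overlapped through WT library 3, the knockout averaged 127% of WT, and log2 expression differed by 0.37 (SE 0.18, 95% interval -0.03 to 0.78, adjusted p = 0.581 by limma). It was 0.26 (SE 0.17) in the ANXA5 knockout, whose libraries had 1636, 1929, 1510 and 1975, against 1114, 1317, 1947 and 1615 in WT libraries. Both knockouts were set against the same low WT libraries 1 and 2.

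Ccnb2, cyclin B2, activates the kinase CDK1 at entry into mitosis. It had 987, 1305 and 1757 normalised reads in ANXA2 knockout libraries, against 1021, 1405, 1324 and 1595 in WT libraries. The knockout libraries spanned the whole WT range and the log2 fold change was -0.01 (SE 0.21, adjusted p = 0.993 by limma). Over 16 other mitotic genes, the mean log2 deviation from the average of all libraries was -0.67, -0.14 and 0.24 in ANXA2 knockout libraries 1, 3 and 4, and -0.29, 0.05, -0.20 and 0.15 in WT libraries 1 to 4. Library by library, Ccnb2 was low where these genes were low, in the lowest libraries of both genotypes. In ANXA5 knockout libraries Ccnb2 had 1450, 1734, 1817 and 1795, against 1117, 1538, 1462 and 1748 in WT libraries (log2 fold change 0.22, SE 0.14, adjusted p = 0.529).

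Bnip2, a scaffold protein with a BCH domain that binds the small GTPase CDC42 and its regulators, had the smallest standard errors of the 10 in both knockouts. It had 3188, 2776 and 2688 normalised reads in ANXA2 knockout libraries, against 3177, 2804, 2798 and 2800 in WT libraries. In each genotype 1 library stood above the others and the rest lay close together, and the log2 fold change was -0.01 (SE 0.10, adjusted p = 0.986 by limma). The ANXA5 knockout libraries had 3133, 3324, 2861 and 3392, against 3475, 3069, 3091 and 3070 in WT libraries (log2 fold change 0.00, SE 0.08).

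Myo1e, a class I myosin motor that links membranes to actin, had 2670, 2435 and 1552 normalised reads in ANXA2 knockout libraries, against 1936, 2106, 2259 and 2014 in WT libraries. Of the knockout libraries 2 lay above and 1 below all WT libraries, so the log2 fold change was 0.06 (SE 0.18, adjusted p = 0.937 by limma). In the other knockout Myo1e was the only neighbour whose groups did not overlap: ANXA5 knockout libraries had 1763, 1938, 1979 and 2115, and WT libraries 2117, 2306, 2495 and 2208. The highest knockout library and the lowest WT library differed by very little. Its log2 fold change there was -0.23 (SE 0.09, 95% interval -0.42 to -0.04), with an unadjusted p of 0.0243 from limma and an adjusted p of 0.362, which does not pass.

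Tln2, talin 2, a large protein that couples integrins to actin, had 2236, 1455 and 1070 normalised reads in ANXA2 knockout libraries, against 972, 1136, 1701 and 1628 in WT libraries. Values spread more than 2-fold within the knockout, and the log2 fold change was 0.20 (SE 0.27, adjusted p = 0.843 by limma). ANXA5 knockout libraries had 1624, 1185, 1236 and 1416, against 1063, 1243, 1879 and 1785 in WT libraries, all within the WT range (log2 fold change -0.10, SE 0.19).

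Vps13c, a bridge protein that carries lipids between the endoplasmic reticulum and late endosomes, had the lowest fold change of the 10. It had 225, 214 and 291 normalised reads in ANXA2 knockout libraries, against 286, 359, 263 and 309 in WT libraries. Knockout libraries 1 and 3 lay below all WT libraries and knockout library 4 among them, the knockout averaged 80.0% of WT, and log2 expression differed by -0.32 (SE 0.16, 95% interval -0.69 to 0.05, adjusted p = 0.588 by limma). In ANXA5 knockout libraries it had 336, 269, 345 and 269, against 313, 393, 291 and 339 in WT libraries (log2 fold change -0.13, SE 0.14).

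**Figure D2:**
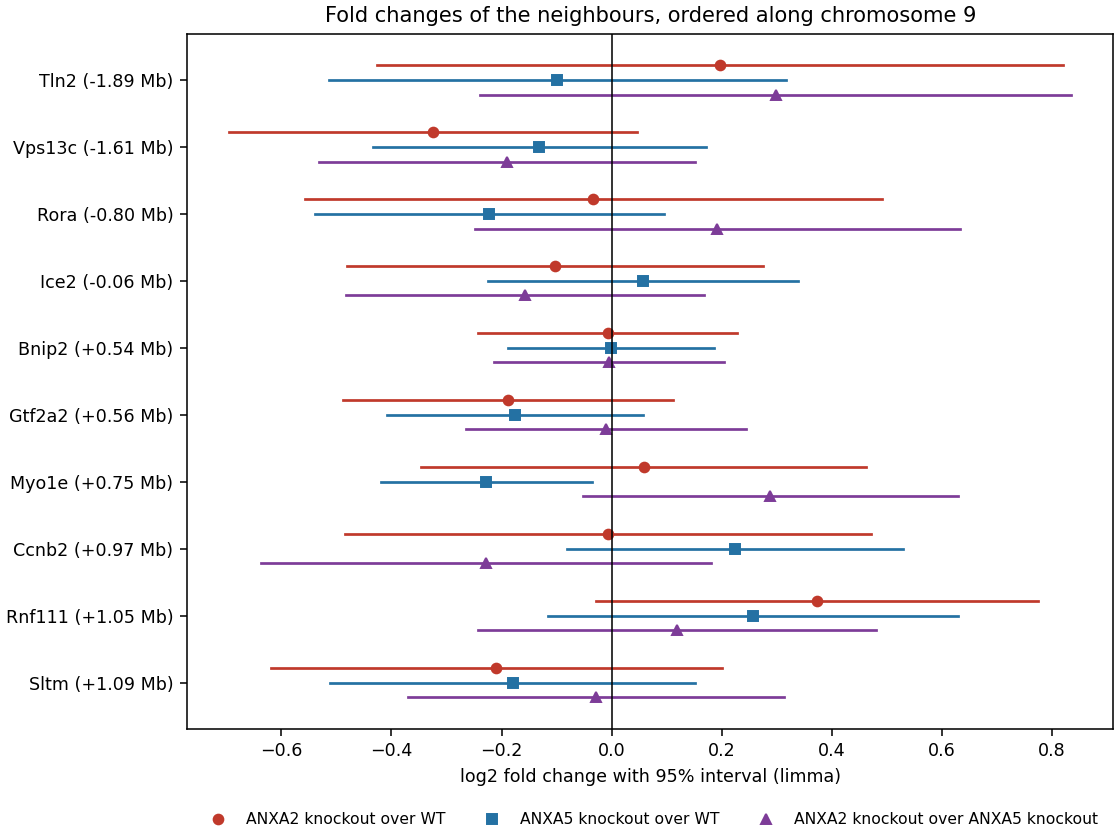
Log2 fold change of each neighbour (horizontal axis) in ANXA2 knockout over WT (circles), ANXA5 knockout over WT (squares) and ANXA2 knockout over ANXA5 knockout (triangles), with 95% intervals from limma as bars, in the order of the chromosome with the distance from Anxa2 in Mb. All intervals of the ANXA2 knockout span 0, and the only interval that does not is that of Myo1e in the ANXA5 knockout, at -0.42 to -0.04.

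In the ANXA5 knockout 0 of the 10 neighbours were called by limma, against 0.0308% of 16224 tested genes, and 1 of 10, Myo1e, had an unadjusted p under 0.05, against 11.9% of all genes. Myo1e was also the 1 of 10 without overlap of the groups, against 6.37% of all genes. edgeR and DESeq2 called 0 of 10 there too, against 0.0308% and 1.69% of all genes. The median log2 fold change was -0.12, with a range of -0.23 (Myo1e) to 0.26 (Rnf111), against 0.01 over all tested genes. Both comparisons use the same 4 WT libraries, so that signs shared by the knockouts, as for Gtf2a2, Sltm, Vps13c and Rnf111, are not independent of each other.

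The ANXA2 knockout was then set directly against the ANXA5 knockout, with the reads of all 11 libraries scaled together. None of the 10 neighbours passed the test, where 0.298% of 16791 tested genes were called by limma. edgeR and DESeq2 called 0 of 10 as well, against 0.262% and 2.44% of all genes. At an unadjusted p under 0.05 it was 0 of 10, against 13.6% of all genes, and the groups separated in 0 of 10, against 12.6%. Tln2 had the highest log2 fold change at 0.30 (SE 0.25, adjusted p = 0.615) and Ccnb2 the lowest at -0.23 (SE 0.19, adjusted p = 0.611). Myo1e had the smallest adjusted p, 0.430, with 2380 ± 632 normalised reads in ANXA2 knockout libraries and 1902 ± 140 in ANXA5 knockout libraries (SD, n = 3 and 4), and a log2 fold change of 0.29 (SE 0.16). With single libraries left out these log2 fold changes ranged from 0.02 to 0.55 for Tln2, -0.44 to -0.02 for Ccnb2 and 0.14 to 0.53 for Myo1e. Without ANXA2 knockout library 4, these 3 of the 10 had an unadjusted p under 0.05, against 21.6% of all genes, and none was called. Bnip2 and Gtf2a2 were nearest to equal, with log2 fold changes of 0.00 and -0.01.

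Per kilobase of annotated exon, and with all libraries on 1 scale, Ccnb2 and Bnip2 had the highest levels of the 10 and Vps13c the lowest in every genotype. Ccnb2 averaged 946 ± 271 normalised reads per kilobase in ANXA2 knockout, 1083 ± 108 in ANXA5 knockout and 935 ± 167 in WT libraries (SD, n = 3, 4 and 4). Bnip2 averaged 895 ± 82.8 in ANXA2 knockout, 897 ± 66.7 in ANXA5 knockout and 898 ± 57.6 in WT libraries, and in WT libraries these top 2 genes did not differ beyond their spread. Myo1e came next with 417 ± 111 in ANXA2 knockout, 333 ± 24.6 in ANXA5 knockout and 391 ± 26.6 in WT libraries. Rora (210 ± 41.0), Gtf2a2 (183 ± 21.1) and Rnf111 (165 ± 39.6) followed in WT libraries and overlapped. Sltm (85.1 ± 19.3) and Tln2 (79.4 ± 21.1) overlapped too, and Ice2 (39.8 ± 5.49) and Vps13c (20.0 ± 2.68) stood clear at the low end. The ranks of Rora, Gtf2a2 and Rnf111, and of Sltm and Tln2, changed places between genotypes and the other 5 ranks did not. The disrupted gene itself was far above all 10, with 2456 ± 486 in ANXA2 knockout, 8588 ± 396 in ANXA5 knockout and 8565 ± 377 in WT libraries.

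Several of the neighbours divided the WT libraries the same way as Xist. How many of all tested genes did so was not counted, so this division cannot be called particular to the neighbours. Xist, the RNA that coats the inactive X chromosome of female cells, had 652, 226 and 203 normalised reads in ANXA2 knockout libraries 1, 3 and 4, against 1829, 1997, 1.16 and 0.959 in WT libraries 1 to 4. In the ANXA5 table it had 783, 2.07, 1676 and 528 in knockout libraries 1 to 4. Libraries with and nearly without Xist thus stood in the same group in WT and in the ANXA5 knockout, so these groups appear to mix female and male cells. WT libraries 1 and 2, high in Xist, were the low ones for Rnf111 and Tln2 and the high ones for Sltm, Ice2, Rora and Gtf2a2. Bnip2 divided this way only in the ANXA2 table and by a small margin, and in the ANXA5 table WT library 2 was its lowest. Myo1e, Ccnb2 and Vps13c did not divide this way. With the log2 value of Xist as a covariate, 0 of 10 neighbours were called in the ANXA2 knockout. An unadjusted p under 0.05 was then reached by 2 of 10, against 17.5% of all tested genes. These were Rnf111 (log2 fold change 0.50, adjusted p = 0.0721 by limma) and Sltm (-0.34, adjusted p = 0.151). Leaving out single libraries called none of the 10 in any comparison. An unadjusted p under 0.05 was then reached in the ANXA2 knockout by Myo1e and Vps13c without ANXA2 knockout library 4, against 11.1% of all genes, and by Rnf111 without WT library 3, against 11.5%.

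The other genes of the same stretch were counted in the same way. Within 5 Mb of Anxa2, 82 genes were tested in the ANXA2 knockout, and limma and edgeR called 0 of them, but 19 (23.2%) had an unadjusted p under 0.05, of which 13 were lower and 6 higher in the knockout, where 4.04% of all tested genes were lower and 4.65% higher at that threshold. At an unadjusted p under 0.01 it was 10 of 82 (12.2%), against 1.89% of all. These include Gm10642, Gm10647 and Gm37137, all lower, with ANXA2 knockout means of 6.61, 5.97 and 2.90. Those means lie under the minimum of 10, so the 3 genes were tested through WT libraries. With a minimum of 50, 20.9% of 67 genes had an unadjusted p under 0.05, against 8.58% of all. Since 0 of the 19 were among the 10 neighbours, the share among the other 72 genes was 26.4%. Without WT library 3 it was 17.1%, where the share of all tested genes was 11.5%. In 16 genes the groups did not overlap (12 lower and 4 higher, against 4.63% and 4.56% of all tested genes), again 0 of them among the 10. Within 2 Mb, where the 10 neighbours lie, 20 genes were tested, and 5 of the remaining 10 had an unadjusted p under 0.05, all lower in the knockout, against 8.69% of all tested genes. The 5 include Gm16144, annotated within Anxa2, and both Mindy2 and Gm10642, which overlap each other. On chromosome 9 beyond 10 Mb the share was 14.1% of 754 genes. In the ANXA5 knockout 7 of 80 genes within 5 Mb (8.75%) passed the unadjusted threshold, against 11.9% of all, and limma, edgeR and DESeq2 called 0. Within 2 Mb it was 3 of 20 there (15%), Myo1e among them, and all 3 were lower in that knockout. The difference of these shares was not tested, and nearby genes share libraries and may share reads, so they are not independent of each other.

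**Figure D3:**
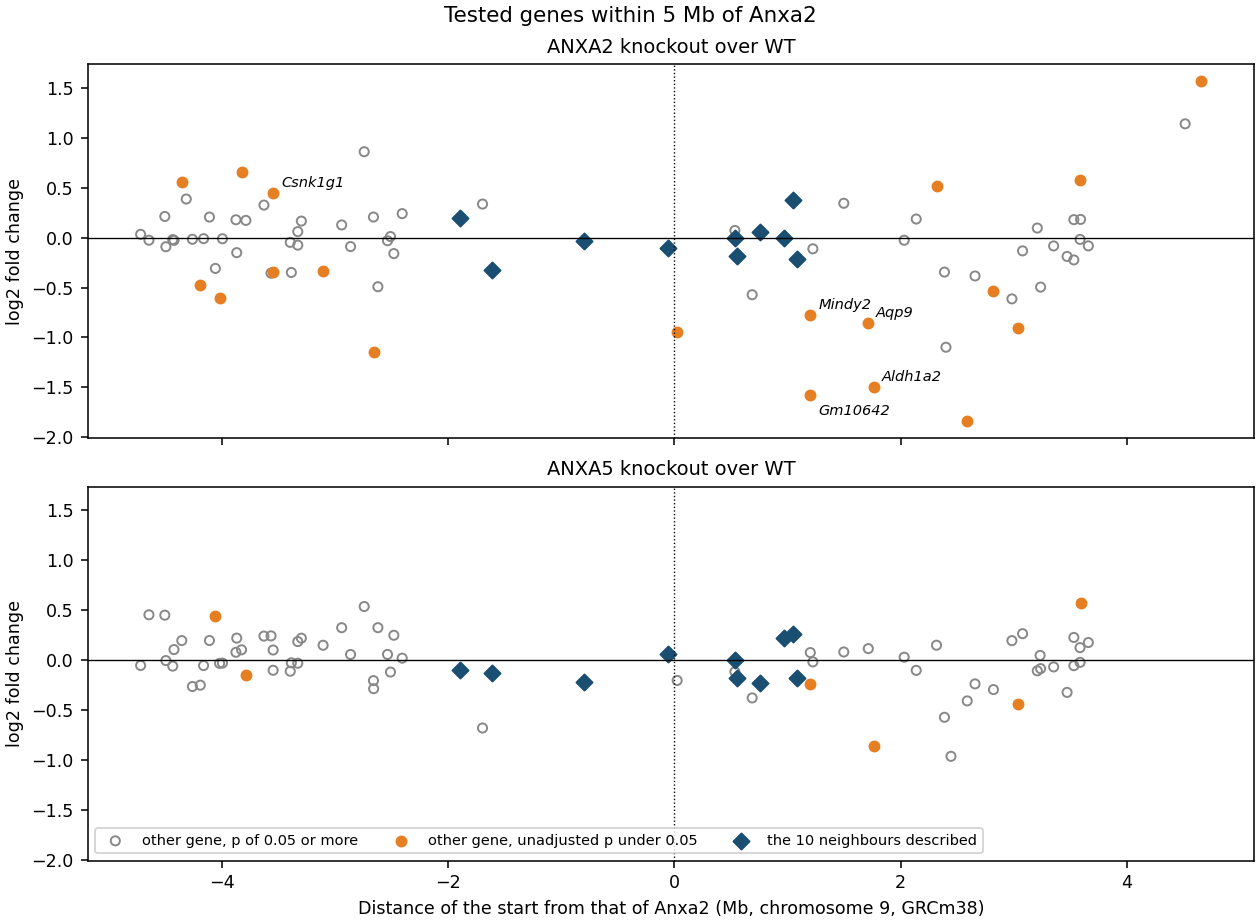
Log2 fold change of every tested gene within 5 Mb of Anxa2 (vertical axis) by the distance of its start from that of Anxa2 in Mb (horizontal axis, GRCm38), in the ANXA2 knockout over WT (top) and the ANXA5 knockout over WT (bottom). Diamonds are the 10 neighbours, filled circles other genes with an unadjusted p under 0.05 and open circles the rest: at the top the diamonds stay between -0.32 and 0.37 while 19 filled circles lie around them, and at the bottom there are 6 filled circles.

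The 5 genes with the smallest p among those lower in the ANXA2 knockout all lie after Anxa2, beyond Sltm. Mindy2, a deubiquitinase gene at 1.20 Mb, had 1157, 841 and 749 normalised reads in ANXA2 knockout libraries, against 1582, 1613, 1663 and 1331 in WT libraries. Gm10642, an annotated transcript that overlaps Mindy2 on the opposite strand, had 6.47, 6.22 and 7.14 in ANXA2 knockout libraries, against 19.1, 17.4, 29.1 and 23.0 in WT libraries. These knockout values lie under the minimum of 10 needed for testing. Here and against the ANXA5 knockout, Gm10642 was tested only through the groups where it is high. Aqp9, a channel for water and glycerol at 1.72 Mb, had 166, 235 and 228 in ANXA2 knockout libraries, against 307, 403, 383 and 413 in WT libraries. All 3 had every knockout library below every WT library, with log2 fold changes of -0.78, -1.58 and -0.85 and adjusted p of 0.258, 0.196 and 0.242 by limma. Aldh1a2, which makes retinoic acid and lies at 1.76 Mb, had 234, 380 and 331 in ANXA2 knockout libraries, against 970, 628, 1506 and 635 in WT libraries (log2 fold change -1.50, adjusted p = 0.278). Its ANXA5 knockout libraries were also all below WT libraries, with 568, 548, 659 and 374, against 1061, 687, 1663 and 696 (log2 fold change -0.86, unadjusted p of 0.0115). Tex9, at 3.04 Mb, averaged 54.3 ± 11.8 in ANXA2 knockout and 102 ± 16.7 in WT libraries (SD, n = 3 and 4, adjusted p = 0.411 by limma). In the ANXA5 knockout Mindy2 and Tex9 were lower too, with overlapping groups. Their log2 fold changes there were -0.24 and -0.44, with unadjusted p of 0.0275 and 0.0490 by limma, and neither was called. Aqp9 and Gm10642 were at 0.11 and 0.08 in the ANXA5 knockout. Set directly against the ANXA5 knockout, Gm10642 was the 1 gene of 85 within 5 Mb that limma called, at a log2 fold change of -1.66 and an adjusted p of 0.0257, and that call was lost, with an adjusted p of up to 0.103, when ANXA2 knockout library 1 or 3 or any 1 of the ANXA5 knockout libraries was left out.

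Among the genes higher in the ANXA2 knockout, the smallest p belonged to Csnk1g1, a casein kinase gene 3.54 Mb before Anxa2, with 729, 687 and 725 normalised reads in ANXA2 knockout libraries, against 494, 507, 528 and 568 in WT libraries (log2 fold change 0.45, adjusted p = 0.378 by limma). Igdcc4 (0.56), Rbpms2 (0.65), Cgnl1 (0.52) and Pigbos1 (0.58) were next by p, none of them called. DESeq2 called 5 of the 82 genes, Aldh1a2, Aqp9, Mindy2, Csnk1g1 and Tex9, with adjusted p of 0.000775, 0.00313, 0.0105, 0.0183 and 0.0422, where it called 0.677% of the genes it tested. The authors' deposited table also lists these 5 under an adjusted p of 0.05, where it calls 0.593% of its genes, and for the ANXA2 knockout it lists all 10 neighbours above it, the smallest being 0.630 for Vps13c.

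**Figure D4:**
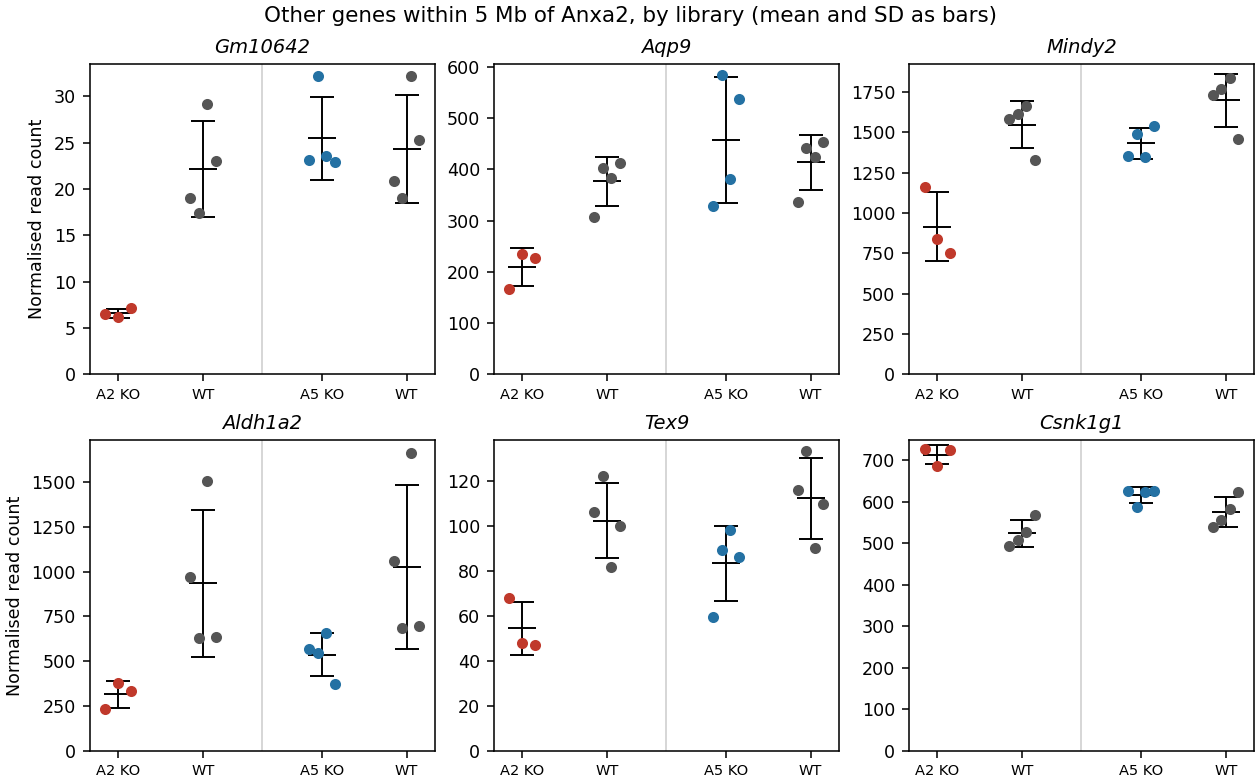
Normalised reads by library (points), with group means and SDs as bars, of Gm10642, Aqp9, Mindy2, Aldh1a2, Tex9 and Csnk1g1, the genes of smallest p within 5 Mb of Anxa2, in each knockout and the WT libraries of its table. In the ANXA2 knockout every point lies below the WT points in the first 5 genes and above them in Csnk1g1, and of the 6 only Aldh1a2 also has separate groups in the ANXA5 knockout.

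Of the genes nearest to Anxa2 by position, Ice2, Rora and Vps13c came before it together with C2cd4b, and Gm16144, Bnip2, Gm28731 and Gtf2a2 after it. C2cd4b, at 17.9 ± 5.76 normalised reads in ANXA2 knockout and 14.2 ± 5.45 in WT libraries (SD, n = 3 and 4), and Gm28731, which overlaps Bnip2 on the opposite strand, at 24.4 ± 0.40 in ANXA2 knockout and 24.0 ± 7.73 in WT libraries, had few reads and overlapping groups. Gm16144, annotated within Anxa2 on the opposite strand, had 10.8, 24.9 and 23.5 in ANXA2 knockout libraries, against 29.7, 26.5, 50.1 and 45.1 in WT libraries. Every knockout library was below the WT libraries (log2 fold change -0.94, adjusted p = 0.565 by limma), and without strand its reads cannot be told apart from those of Anxa2.

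Genes that work with the 10 neighbours were counted by role, and limma and edgeR called 0 members of any of the 10 lists in any of the 3 comparisons. DESeq2 called 4 list members in the ANXA2 knockout, against 0.677% of all genes. All 4 (Per1, Per2, Per3 and Tef) were among 18 tested clock genes and RORα targets. In the ANXA5 knockout it called 5, against 1.69% of all genes. They were Npas2 and Per1 of 18 such genes, Kank3 of 9 talin and integrin genes, and Boc and Cdon of 8 Bnip2 relatives or partners. Between the knockouts it called 6, against 2.44% of all genes. Those were Bhlhe40, Hlf and Nfil3 of 18, Kank1 of 9, and Boc and Cdon of 8 in the same lists. The counts of small p-values below stand against 8.69% of all tested genes in the ANXA2 knockout, 11.9% in the ANXA5 knockout and 13.6% between the knockouts. For the transcription genes, 0 of 8 TFIIA and preinitiation genes and 2 of 7 genes of the little elongation complex and its partners had an unadjusted p under 0.05 in the ANXA2 knockout: Ell, an elongation factor, at a log2 fold change of 0.31, and Coil, the scaffold of Cajal bodies, at -0.44. Safb and Safb2, the relatives of Sltm, had log2 fold changes of 0.15 and -0.02. Clock genes and RORα targets were the list with the most small p-values, 11 of 18 in the ANXA2 knockout with a median log2 fold change of 0.60, and 6 of 18 in the ANXA5 knockout with a median of -0.01. Among them Per1, a repressor of the clock, averaged 1275 ± 312 normalised reads in ANXA2 knockout and 517 ± 211 in WT libraries, and 1323 ± 241 in ANXA5 knockout and 568 ± 234 in WT libraries of its table (SD, n = 3 or 4). Both comparisons use the same 4 WT libraries. In WT libraries 1 to 4 of the ANXA2 table Per1 had 338, 334, 738 and 656, low in the libraries high in Xist. Rora itself had a log2 fold change of -0.03. Over ANXA2 knockout libraries 1, 3 and 4 the mean log2 deviation of the list was 0.66, 0.30 and -0.03, in the order of Rora, but over WT libraries 1 to 4 it was -0.12, -0.26, 0.07 and -0.26, which is not the order of Rora.

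For the partners of Rnf111, log2 fold changes of 13 SMAD pathway genes in the ANXA2 knockout centred on a median of 0.23, and 11 of 13 lay above 0, as did 8721 of all 16123 tested genes. Mitotic genes, the partners of Ccnb2, had a median of -0.06 with 0 of 16 at an unadjusted p under 0.05 in the ANXA2 knockout, and of 0.31 with 9 of 16 in the ANXA5 knockout, where Ccnb2 itself was at 0.22. Set directly against the ANXA5 knockout, all 16 lay below 0 in the ANXA2 knockout, 7 of them with an unadjusted p under 0.05, and Ccnb2 was at -0.23. For the genes at the cytoskeleton and membranes, the counts under that threshold in the ANXA2 knockout were 0 of 9 for talin and its integrin partners, 0 of 6 for class I myosins, 0 of 8 for relatives and partners of Bnip2, and 1 of 5 for bridge proteins of the VPS13 kind. That gene was Vps13a, at 284 ± 37.7 normalised reads in ANXA2 knockout and 348 ± 10.6 in WT libraries (SD, n = 3 and 4), a log2 fold change of -0.30 beside the -0.32 of Vps13c.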

How the data were processed

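RNA of stromal cells was extracted with a spin column kit and made into sequencing libraries, per the labels' protocols. Per the submitters' processing notes, the tools were DESeq2, HTSeq, STAR and Trim Galore on GRCm39. Their versions, the strand setting and the annotation are not given in these sources. The signal values that the authors deposited are read counts divided by DESeq2 size factors, and multiplying back gave whole reads in 100% of values within 0.001. The authors also deposited log2 fold changes (knockout minus WT) with their errors, p-values and adjusted p-values of DESeq2, and a score, the Wald statistic per the file headers, which was not used. The tables hold 19259 genes for the ANXA2 and 19801 for the ANXA5 knockout, and 0 sample columns were left out.

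Main tests were limma-trend fits on log2 (value + 1). Genes entered if they reached 10 in a number of libraries equal to the size of the smaller group. Tests were two-sided, with Benjamini-Hochberg adjustment over all tested genes and a threshold of 0.05. Fold changes on this scale understate the change of low genes. The 2 knockouts were compared in 1 limma fit of all libraries, on the recovered reads scaled by median-of-ratios factors. The fits were tested on simulated data with 200 changed genes. R 4.3.3, limma 3.58.1, edgeR 4.0.16 and DESeq2 1.42.0 were used. The alternatives run were edgeR, limma-voom, DESeq2, TMM factors, a pseudocount of 0.5 or 5, no filter, a minimum of 50, Xist as a covariate, a replicate block, windows of 2 and 10 Mb, and leaving out each library.

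The members, partner lists and markers were chosen with earlier results of these data known. Besides all members and the targets, the genes named by rule were the 4 nearest tested genes on each side, the 5 smallest p in each direction within 5 Mb, and up to 2 per partner list by smallest p. Coro2b, Gm10647, Gm37137 and the further list genes named because DESeq2 called them were chosen after their values were seen. Positions came from GENCODE vM21 on GRCm38, which matched 99.8% of tested genes, and promoters from RefSeq. The values of 1 gene of the partner lists are not reported here.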

Additional observations from a re-analysis of the deposited data

Results flagged for a closer look

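In 20 groups of 4 libraries, each 1 of the 10 neighbours in 1 genotype and table, the highest and lowest library was compared with the others, and 2 stood apart, where chance alone gives about 5% of groups. Bnip2 in WT library 1 had 3177 normalised reads, against 2798 to 2804 in the other 3 WT libraries of the ANXA2 table. Ice2 in ANXA5 knockout library 3 had 375, against 306 to 315 in the other 3 libraries of that genotype.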

How the results depend on the processing

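The count of called neighbours was 0 of 10 in all 3 comparisons under every alternative run. The total of called genes moved from 18 in the ANXA2 knockout to 107 with DESeq2, 284 with Xist as a covariate and 8 to 16 with single libraries left out; from 5 in the ANXA5 knockout to 274 with DESeq2 and 4 to 32 (the most without WT library 4) with libraries left out; and from 50 between the knockouts to 385 with DESeq2 and 19 to 54 with libraries left out. Within 5 Mb of Anxa2 the count moved from 0 to 5 with DESeq2, and to 1 within 10 Mb (Coro2b, 6.92 Mb before Anxa2, log2 fold change -1.84, adjusted p = 0.00753). With the replicate number as a block, 8 genes were called in the ANXA5 knockout. Same-numbered libraries correlated at 0.05, -0.07, -0.25 and 0.07, and 0 of 4 correlated best with their own number. These correlations showed no pairing by number, but with 4 libraries per group they are too weak to exclude it. In the ANXA2 table no block was fitted, as its columns could not be matched to numbered titles. Small fold changes turned sign. In the ANXA2 knockout, Ccnb2 was at 0.015 with DESeq2, 0.073 with Xist and 0.0025 with edgeR, and Gm28731 at -0.076 with Xist and -0.00051 with edgeR; in the ANXA5 knockout Bnip2 was at 0.00078 with DESeq2. With single libraries left out, log2 fold changes in the ANXA2 knockout ranged from -0.19 to 0.035 for Ice2, -0.30 to 0.15 for Rora, -0.081 to 0.042 for Bnip2, -0.094 to 0.30 for Myo1e, -0.22 to 0.20 for Ccnb2, -0.084 to 0.45 for Tln2 and -0.040 to 0.26 for Gm28731. In the ANXA5 knockout they ranged from -0.011 to 0.13 for Ice2, -0.033 to 0.049 for Bnip2, -0.25 to 0.026 for Tln2, -0.016 to 0.26 for Aqp9, -0.038 to 0.21 for Gm10642, -0.23 to 0.070 for Gm28731 and -0.051 to 0.24 for Pigbos1. Between the knockouts they ranged from -0.070 to 0.37 for Rora, -0.078 to 0.045 for Bnip2, -0.061 to 0.073 for Gtf2a2 and -0.074 to 0.061 for Sltm. The share of other genes within 5 Mb with an unadjusted p under 0.05 in the ANXA2 knockout ran from 17.1% (without WT library 3, with 11.5% of all genes) to 29.3% (without ANXA2 knockout library 1, with 7.72% of all genes). The causes were not tested.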
